A study of Rattus norvegicus with 8 samples.

Results

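The proteasome subunit genes were taken from the mRNA probes of a rat lncRNA array as every probe whose RefSeq accession belongs to a gene with a symbol that starts with Psma, Psmb, Psmc, Psmd, Psme, Psmf or Psmg and a number. The rule found 45 probes for 45 genes, each printed in 1 spot, among 15323 mRNA probes and 24684 probes in all. Of these genes, 43 encode subunits of the proteasome, its assembly chaperones, its activators or its inhibitor. The other members, Psmc3ip and Psme3ip1, fit the rule by their symbols but encode partner proteins, and they are described at the end of the lung results. Psmb11, Psmd11, Psme4, Psmg1 and Psmg3 had no probe under the rule.

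The proteasome is the protease that breaks down proteins marked with ubiquitin. Its barrel-shaped core is built of rings of alpha subunits, which gate the channel, around rings of beta subunits, some of which cut peptide bonds, and a regulatory cap binds, unfolds and feeds in the substrate. In immune cells, and in other cells exposed to interferon gamma, the cutting beta subunits are replaced by inducible ones, which gives the immunoproteasome that supplies peptides for display on MHC class I.

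The samples were lung tumor (3 arrays) and matched normal lung (3 arrays) of rats given NNK (a tobacco-specific carcinogen), and blood clots of 1 control rat and 1 rat given NNK. All were from male F344 rats and were collected in week 95. The normal lung therefore also came from NNK-treated animals, and no lung of an untreated rat is analysed here. The description field of the NNK blood sample names a tumor, but its other labels say clot, and it was used as blood.

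Surfactant genes were bright on all lung arrays and haemoglobin genes on both blood arrays. Of 7 type 2 alveolar markers, 4 were well above background on both blood arrays, the brightest of them Napsa (log2 signal 11.49 in control and 13.02 in NNK blood), while Sftpc was so on neither. The summed log2 signal of 8 red blood cell probes was 21.65 in control blood and 21.63 in NNK blood. Arrays scanned together were taken as a slide: normal lung 1 to 3 with tumor 1, then tumor 2 with tumor 3, then both blood samples. Over lncRNA probes with 3 spots, the squared difference between any pair of normal arrays was 0.470 to 0.673 times that expected from the spread between spots, and 0.433 times between tumor arrays 2 and 3. The normal arrays thus differed by less than the noise between spots, as did tumor arrays 2 and 3, and each set may be 1 sample measured repeatedly. Tumor array 1 differed from tumor arrays 2 and 3 (4.03 and 4.21 times), and tumor arrays differed from normal arrays by 11.2 to 15.0 times. The study describes its tumor samples as independent and the normal lungs as matched to them, but no label names the animals. With arrays this close, p values measure only the spread between arrays, which may be technical.

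Every one of the 45 probes was well above background on all 6 lung arrays. Values in lung are log2 processed signals after quantile normalization within the 6 lung arrays, and a difference is the mean of the tumor arrays minus the mean of the normal arrays with its standard error from limma (3 arrays a group). A probe was said to rise or fall where the Benjamini-Hochberg adjusted p over all probes tested was at most 0.05. The scanner software had marked member spots as outliers 2 to 3 times on a normal array but 11 to 19 times on a tumor array. Marked spots were left out, so that 29 members could be tested and 16 could not. The latter (Psma3, Psma4, Psma7, Psmb4, Psmb6, Psmb9, Psmb10, Psmc3, Psmc3ip, Psmc6, Psmd5, Psmd12, Psmd14, Psmf1, Psmg2 and Psmg4) are given with their marked spots kept, and this is said at each value.

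In lung tumor, 13 of the 29 tested members rose and 3 fell, while 33.7% of all 12471 probes tested rose and 31.4% fell. The members that rose were Psma1, Psma2, Psma5, Psmb1, Psmb2, Psmb3, Psmb5, Psmb7, Psmc4, Psmd1, Psmd9, Psmd13 and Psme1, and those that fell were Psmd2, Psmd10 and Psme2. The changes were small. Of the members, 1 (Psmb2) rose at least 2-fold and 0 fell at least 2-fold (also 0 at an unadjusted p under 0.05 in limma), against 13.5% and 15.5% of all probes. The median difference was 0.14 over the tested members and 0.07 over all probes tested. With marked spots kept, all 45 could be tested, and 23 rose and 5 fell, against 34.5% and 31.6% of 15803 probes, with a member median of 0.21. All 16 calls made without the marked spots were made again with them, in the same direction. With a 75th percentile shift in place of quantile normalization, 8 members rose, 3 fell and the median was 0.0090, below the all-probe median of 0.083, while 35.1% of all probes rose and 31.4% fell. Tumors and normal lungs share replicate numbers and are called matched, and with the number as a block 8 members rose and 2 fell, against 29.8% and 29.2% of all probes.

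The calls of members rested on treating each array as a sample. When the near-identical arrays were averaged and counted once (1 normal sample against 2 tumor samples), limma called 0 members (5 of 29 at an unadjusted p under 0.05, of which 4 were higher and 1 lower), while it still called 6.31% of all probes higher and 7.92% lower. The member median was then 0.16, and the difference was 0.88 for Psmb7 and 0.74 for Psma2, close to their values over all 6 arrays. Tumor array 1, the only one on the slide of the normal arrays, had the highest median difference of the members from the normal mean (0.30, marked spots kept), against 0.19 and 0.18 on tumor arrays 2 and 3. Without tumor array 1, 26 members could be tested, of which 10 rose and 7 fell with a median of 0.054, while 36.1% of all probes rose and 36.0% fell with a median of 0.025. With the slide as a block, which sets tumor array 1 alone against the normal arrays, the member median was 0.22 and the all-probe median 0.092. Fewer cells of a type and less RNA per cell cannot be told apart in these bulk samples.

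**Figure D1:**
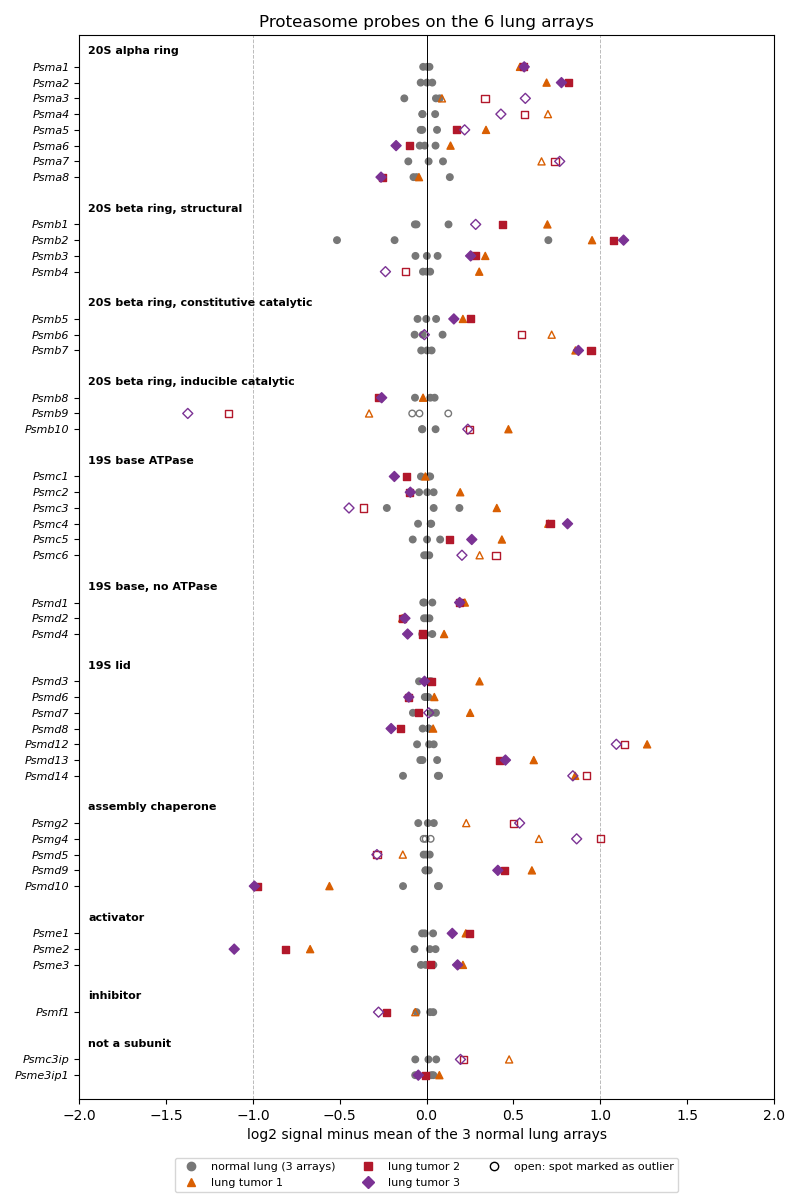
Log2 signal of each of the 45 proteasome probes on the 6 lung arrays, as the difference from the mean of the 3 normal lung arrays (horizontal axis), with the genes ordered by role (vertical axis). Open symbols are spots marked as outliers, and dashed lines stand at 2-fold. Most tumor symbols lie to the right of the normal ones in the alpha ring. Psmb9, Psmd2, Psmd5, Psmd10, Psme2 and Psmf1 lie to the left on all 3 tumor arrays.

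Among the alpha ring genes, which form the outer rings and the gate of the core, 3 of 5 tested members rose and 0 fell (5 of 8 rose with marked spots kept). Lung counts of a role or gene list, here and below, stand beside 33.7% of all probes tested that rose and 31.4% that fell. With marked spots kept these shares were 34.5% and 31.6%. Psma2 gave 14.77, 14.80 and 14.73 on normal arrays 1 to 3 and 15.46, 15.58 and 15.54 on tumor arrays 1 to 3. All tumor arrays were higher than all normal arrays, and Psma2 rose by 0.76 ± 0.06 (1.69-fold, adjusted p = 0.000166). Psma1 rose by 0.55 ± 0.05 (adjusted p = 0.000249), from 16.02, 16.04 and 16.05 to 16.58, 16.60 and 16.60. These 2 calls held whichever single array was left out. Psma5 rose by 0.26 ± 0.08 (adjusted p = 0.0487), a call that was lost without normal array 1, 2 or 3 or without tumor array 3 (adjusted p from 0.0531 to 0.139).

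Psma4 and Psma7, with marked spots kept, stood higher on every tumor array. Psma7 gave 13.24, 13.15 and 13.04 in normal lung and 13.80, 13.88 and 13.91 in tumor, all of the latter marked, a difference of 0.72 ± 0.07 (adjusted p = 0.000438). Psma4 rose by 0.56 ± 0.08 (adjusted p = 0.00212) with marked spots kept. Psma3, also with marked spots kept, differed by 0.33 ± 0.14 (adjusted p = 0.0825), and Psma6, which the RefSeq table lists with 5 further gene copies of like name, by -0.04 ± 0.10 (adjusted p = 0.698). Psma8, known for its part in the testis, where it takes the place of Psma7, was dim and overlapped between the groups (7.65, 7.67 and 7.86 in normal lung; 7.68, 7.47 and 7.46 in tumor), a difference of -0.19 ± 0.10 (adjusted p = 0.137).

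All 3 tested genes of the structural beta ring, whose products hold the inner rings together without cutting, rose. Psmb2 had the largest difference among the tested members, 1.05 ± 0.32 (2.08-fold, adjusted p = 0.0321), and also the largest spread. Its normal arrays gave 8.47, 7.58 and 7.25, and its tumor arrays 8.72, 8.84 and 8.90. Normal array 1 came close to the lowest tumor array, and the call was lost without normal array 2 or 3 or any tumor array (adjusted p from 0.0627 to 0.0929), and under the replicate block (adjusted p = 0.0620) and the slide block (0.172). Psmb1 rose by 0.57 ± 0.12 (adjusted p = 0.0134) and Psmb3, which has 10 further copies of like name in the RefSeq table, by 0.29 ± 0.06 (adjusted p = 0.00798). Psmb4, with marked spots kept, gave -0.02 ± 0.15 (adjusted p = 0.922), with tumor array 1 above and tumor arrays 2 and 3 below the normal arrays.

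The cutting subunits of the standard core are Psmb6 (caspase-like activity), Psmb7 (trypsin-like) and Psmb5 (chymotrypsin-like). Psmb7 gave 14.34, 14.36 and 14.30 in normal lung and 15.19, 15.28 and 15.21 in tumor. It rose by 0.89 ± 0.05 (1.86-fold, adjusted p = 6.7e-05), with no overlap between the groups and with a like difference for tumor array 1 within its slide (0.86). Psmb5 rose by 0.21 ± 0.06 (adjusted p = 0.0245), from 14.77, 14.72 and 14.67 to 14.93, 14.97 and 14.88, a call that was lost without normal array 2 or 3 or tumor array 2 (adjusted p from 0.0802 to 0.0882) and under the replicate block (0.0633). Psmb6, with all its tumor spots marked, gave 11.38, 11.21 and 10.65 in tumor against 10.75, 10.64 and 10.59 in normal lung, 0.42 ± 0.20 higher (adjusted p = 0.114), and tumor array 3 lay among the normal arrays.

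The inducible subunits Psmb9, Psmb10 and Psmb8 replace Psmb6, Psmb7 and Psmb5 in this order when an immunoproteasome is assembled. Their promoters, with that of the activator gene Psme2, are shown because all 4 genes were higher in NNK blood than in control blood, as described further on, and because interferon-regulated promoters are known for paired GAAA repeats. Each line gives the 120 bases before the start in RefSeq GRCr8, 5′ to 3′ on the strand of the gene, and capitals mark GAAANNGAAA.
Psmb9: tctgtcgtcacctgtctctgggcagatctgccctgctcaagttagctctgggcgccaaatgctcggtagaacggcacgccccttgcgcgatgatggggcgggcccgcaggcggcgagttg
Psmb10: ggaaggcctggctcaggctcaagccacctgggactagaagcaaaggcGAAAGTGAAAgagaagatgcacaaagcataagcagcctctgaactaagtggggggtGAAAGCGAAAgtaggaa
Psmb8: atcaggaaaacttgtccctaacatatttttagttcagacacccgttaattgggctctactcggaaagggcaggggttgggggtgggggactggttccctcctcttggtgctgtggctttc
Psme2: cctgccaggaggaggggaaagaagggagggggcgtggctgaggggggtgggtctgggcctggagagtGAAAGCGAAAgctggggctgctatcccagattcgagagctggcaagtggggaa
The Psmb9 stretch is chr20:4668880-4668999 (plus strand) and the Psmb8 stretch chr20:4657032-4657151 (minus strand), close to each other on the chromosome. Psmb10 is at chr19:50743293-50743412 and Psme2 at chr15:33052752-33052871, both on the minus strand. Psmb10 held the motif at 73 and 17 bases before the start and Psme2 at 53, while Psmb9 and Psmb8 did not hold these letters in the 250 bases before the start.

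Of the subunits and factors on the array, 39 had a promoter in the RefSeq table. GAAANNGAAA, searched on both strands in the 250 bases before the start, was in 5 of them (Psma4, Psmb3, Psmb10, Psmd7 and Psme2), or 12.8%, and in 3.41% of all 33469 promoters. TGACNNNGC, the core of the antioxidant-type element bound by the Nfe2l1 and Nfe2l2 proteins, was in 6 (Psma3, Psmb2, Psmb5, Psmb6, Psmd1 and Psmd9), or 15.4%, and in 10.1% of all. CCAAT was in 19 (48.7%) and in 34.0% of all. In Psmb2 the TGACNNNGC match and a CCAAT match shared 1 base, at 68 before the start, and no other matches of different motifs overlapped in the member promoters. A match describes the sequence alone.

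In lung tumor the inducible subunits did not move as one. Psmb8 gave 15.33, 15.44 and 15.42 in normal lung and 15.37, 15.12 and 15.14 in tumor, a difference of -0.19 ± 0.09 (adjusted p = 0.120) with tumor array 1 among the normal arrays. Psmb9, marked on all 6 arrays, gave 12.71, 12.50 and 12.54 in normal lung and 12.25, 11.44 and 11.21 in tumor. With these spots kept it fell by 0.95 ± 0.28 on the log2 scale (adjusted p = 0.0281), but within the slide of tumor array 1 the difference was -0.33 (adjusted p = 0.0910 with the slide block). The call was also lost without normal array 1, 2 or 3 (adjusted p = 0.0811, 0.0637 and 0.0682) or tumor array 2 or 3 (0.0874 and 0.0694). Psmb10, with marked spots kept, gave 14.65, 14.58 and 14.58 in normal lung and 15.07, 14.85 and 14.84 in tumor and rose by 0.32 ± 0.08 (adjusted p = 0.0183), a call lost without normal array 2 or 3 (0.0629 and 0.0618).

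Set against the standard subunit it replaces, each inducible subunit was lower in the tumors than in the matched lung. For each array the log2 signal of the standard subunit was subtracted from that of the inducible one (marked spots kept), which shows unequal change between arrays and not which gene was more abundant. Psmb9 minus Psmb6 was 1.95, 1.86 and 1.95 in normal lung and 0.87, 0.23 and 0.56 in tumor, a difference of -1.37. Psmb10 minus Psmb7 was 0.32, 0.22 and 0.27 in normal lung and -0.12, -0.43 and -0.37 in tumor, a difference of -0.57. Psmb8 minus Psmb5 went from 0.55, 0.72 and 0.75 to 0.44, 0.15 and 0.26, a difference of -0.39. The groups did not overlap in any of these 3 pairs. The two-sided exact permutation test gave p = 0.1 for each (adjusted over the 3 pairs, 0.1), the smallest p that 3 against 3 arrays allow. It treated each array as a sample, although near-identical arrays may be 1 sample measured repeatedly. With near-identical arrays counted once, the differences were -1.29, -0.53 and -0.35. Within the slide of tumor array 1 the differences were -1.05, -0.39 and -0.23.

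**Figure D2:**
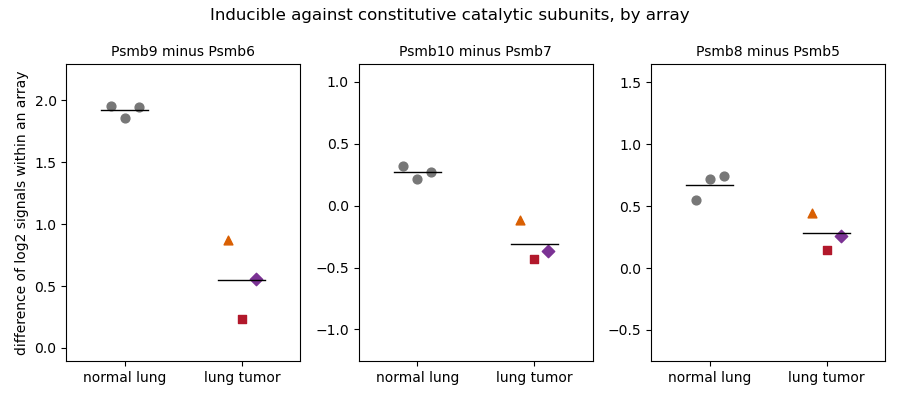
Difference of log2 signals between the inducible and the standard cutting subunit within each lung array (vertical axis, the same span in each panel), for normal lung and lung tumor (horizontal axis), with marked spots kept. Grey circles are normal arrays, the triangle, square and diamond are tumor arrays 1, 2 and 3, and lines are group means; every tumor array lies below every normal array in all 3 panels.

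The Psmc genes encode the ring of ATPases at the base of the cap, which unfolds the substrate. Of 4 tested members 1 rose and 0 fell (3 of 6 rose with marked spots kept). Psmc4 gave 13.88, 13.80 and 13.87 in normal lung and 14.55, 14.56 and 14.66 in tumor and rose by 0.74 ± 0.06 (1.67-fold, adjusted p = 0.000194). Psmc5 differed by 0.27 ± 0.10 (adjusted p = 0.0510), just outside the threshold, and with marked spots kept over all probes its adjusted p was 0.0492. Psmc1 gave -0.10 ± 0.07 (adjusted p = 0.214) and Psmc2 0.00 ± 0.10 (adjusted p = 0.996). With marked spots kept, Psmc6 rose by 0.30 ± 0.07 (adjusted p = 0.0101), and Psmc3 gave -0.13 ± 0.26 (adjusted p = 0.664) with tumor array 1 above and the others below the normal arrays.

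The large scaffold subunits of the base went in opposite directions, both by little. Psmd1 gave 14.72, 14.76 and 14.71 in normal lung and 14.95, 14.92 and 14.92 in tumor and rose by 0.20 ± 0.05 (adjusted p = 0.0146), a call that was lost without normal array 1 or 3 (adjusted p from 0.0565 to 0.0604) and under the replicate block (0.0647). Psmd2, which also docks ubiquitin receptors and shuttles, gave 16.21, 16.24 and 16.22 in normal lung and 16.08, 16.09 and 16.10 in tumor and fell by 0.13 ± 0.05 on the log2 scale (adjusted p = 0.0470). This call was lost without any one of the normal arrays or without tumor array 2 or 3 (adjusted p from 0.0970 to 0.153). Psmd4, a ubiquitin receptor, differed by -0.01 ± 0.07 (adjusted p = 0.895).

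In the lid, the part of the cap that removes ubiquitin chains, 1 of 5 tested members rose and 0 fell (3 of 7 rose with marked spots kept). Psmd13 rose by 0.50 ± 0.07 (1.41-fold, adjusted p = 0.00240), from 14.25, 14.24 and 14.33 to 14.89, 14.69 and 14.73. Psmd12, a lid scaffold subunit, had the largest difference of all 45 members. It gave 10.61, 10.71 and 10.68 in normal lung and 11.94, 11.81 and 11.76 in tumor, of which tumor arrays 2 and 3 were marked. With these spots kept it rose by 1.17 ± 0.07 (2.25-fold, adjusted p = 5.41e-05), and within the slide of tumor array 1, whose spot was not marked, the difference was 1.27. Psmd14, the enzyme that cuts off the ubiquitin chain, gave 14.20, 14.41 and 14.41 in normal lung and 15.20, 15.26 and 15.18 in tumor and rose by 0.87 ± 0.08 (1.83-fold, adjusted p = 0.000260) with marked spots kept. The remaining lid genes, Psmd3, Psmd6, Psmd7 and Psmd8, did not pass, with differences from -0.11 ± 0.08 (Psmd8) to 0.11 ± 0.10 (Psmd3).

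The assembly chaperones help to build the core and the cap and are not part of the finished protease. Psmd9 and Psmd10, which bind ATPases of the base during assembly, went in opposite directions. Psmd9 gave 11.36, 11.34 and 11.34 in normal lung and 11.95, 11.79 and 11.76 in tumor and rose by 0.49 ± 0.07 (1.40-fold, adjusted p = 0.00189). Psmd10, also known as gankyrin and described as an oncoprotein in liver cancer, gave 8.20, 8.00 and 8.21 in normal lung and 7.58, 7.16 and 7.15 in tumor. It fell by 0.84 ± 0.14 on the log2 scale (adjusted p = 0.00390), with no overlap between the groups and with a difference of -0.56 for tumor array 1 within its slide. The call of Psmd10 was lost by a paired t-test over replicate numbers. With marked spots kept, Psmg4 rose by 0.84 ± 0.10 (adjusted p = 0.000865) and Psmg2 by 0.42 ± 0.10 (adjusted p = 0.0119); both proteins act in the building of the alpha ring. Psmd5, a further chaperone of the base, fell by 0.24 ± 0.06 (adjusted p = 0.0198) with marked spots kept, a call lost in 9 of 18 alternatives.

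Psme1 and Psme2 encode the partners of 1 activator ring, which opens the core without ubiquitin and is known to be induced by interferon gamma. They moved in opposite directions in tumor. Psme2 was dim, with 7.28, 7.37 and 7.40 in normal lung and 6.68, 6.54 and 6.24 in tumor, and fell by 0.86 ± 0.12 on the log2 scale (adjusted p = 0.00203). Its difference for tumor array 1 within the slide was -0.67, and the call held whichever array was left out. A paired t-test over replicate numbers lost this call. Psme1 rose by 0.21 ± 0.05 (adjusted p = 0.0201), from 14.74, 14.75 and 14.80 to 14.99, 15.01 and 14.91, a call that was lost without normal array 1 or 2 or tumor array 2 (adjusted p from 0.0719 to 0.0763) and under the replicate block (0.0777). Both genes have 3 further copies of like name in the RefSeq table. Altogether 19 members have a copy of like name, among them Psma2, Psma7, Psmb6, Psmb7, Psmc4, Psmd12, Psmd14 and Psmg4. For all of these, signal from a copy cannot be told apart from that of the gene itself.

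Psme3, which forms a nuclear activator of its own, differed by 0.14 ± 0.07 (adjusted p = 0.140) and the groups overlapped. Psmf1, the inhibitor of the core, gave 13.68, 13.66 and 13.58 in normal lung and 13.57, 13.41 and 13.36 in tumor, with tumor arrays 1 and 3 marked. All tumor arrays were below all normal arrays, tumor array 1 only just, and with marked spots kept the difference was -0.19 ± 0.08 (adjusted p = 0.0705). Of the members that are not subunits, Psmc3ip, a factor of meiotic recombination, rose by 0.29 ± 0.10 (adjusted p = 0.0381) with marked spots kept, a call lost in 10 of 18 alternatives, and Psme3ip1, a partner of the nuclear activator, differed by 0.01 ± 0.06 (adjusted p = 0.941).

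Genes that work beside the proteasome but fall outside the naming rule were read from lists of related genes. Of 4 tested partners 2 rose and 1 fell. Txnl1, a redox protein bound to the cap, rose by 0.90 (adjusted p = 0.000443) and Sem1, a small lid subunit, by 0.64 (adjusted p = 0.00221), while Hsp90aa1, a heat shock chaperone, fell by 0.27 on the log2 scale (adjusted p = 0.00957). With marked spots kept, 3 of 8 rose and 2 fell. Adrm1, a ubiquitin receptor of the cap, rose by 1.19 (adjusted p = 2.06e-05), Akirin2, which takes part in the import of proteasomes into the nucleus, fell by 0.32 on the log2 scale (adjusted p = 0.0114), and Pomp, the maturation factor of the core, differed by 0.46 (adjusted p = 0.0691).

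Of 5 tested genes that regulate proteasome transcription 0 rose and 3 fell. Mafk, a small Maf partner of the Nfe2l factors, fell by 1.10 (adjusted p = 0.00106) and Nfyc, a subunit of the CCAAT-binding factor, by 0.45 (adjusted p = 0.00684), both on the log2 scale. Nfe2l1, which drives proteasome genes when proteasome activity is short, differed by -0.38 (adjusted p = 0.135). Nfe2l2, the regulator of the antioxidant response, rose by 1.08 (adjusted p = 0.00512) with marked spots kept. In that setting 1 of 8 rose and 5 fell, among them Nfyb, a further subunit of the CCAAT-binding factor (-0.59, adjusted p = 0.0105), and Ngly1, the enzyme that removes sugar chains from Nfe2l1 (-0.33, adjusted p = 0.0124).

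Uba6, an E1 enzyme that activates ubiquitin, fell by 0.80 on the log2 scale (adjusted p = 0.0404). Of 6 tested shuttle and extraction genes 2 rose and 0 fell, Ubqln1 by 0.51 (adjusted p = 0.000401) and Nploc4 by 0.32 (adjusted p = 0.00238). With marked spots kept, 2 of 10 rose and 1 fell, which was Ubqln2 (-0.59, adjusted p = 0.00214).

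In the pathway that the immunoproteasome feeds, 1 of 3 tested MHC class I supply genes rose (Calr, a chaperone of the endoplasmic reticulum, by 1.28, adjusted p = 0.00454) and 0 fell. With marked spots kept, 1 of 7 rose and 1 fell, the latter being Tap2, a subunit of the peptide transporter (-1.34, adjusted p = 0.000909). Of 13 tested interferon response genes 3 rose and 7 fell, led by Ifit1 (-2.22, adjusted p = 3.73e-05) and Rsad2 (-1.99, adjusted p = 6.23e-06), and with marked spots kept 3 of 20 rose and 11 fell. Markers of several cell types moved between the same arrays. Of 7 tested T cell markers 0 rose and 4 fell, with a summed log2 signal of 14.35 to 14.41 in normal lung and 13.51 to 13.68 in tumor; Cd4 was not well above background on any lung array. Of 3 tested endothelial markers 0 rose and 3 fell (17.83 to 17.89 and 15.54 to 15.56), and of 5 type 1 alveolar markers 1 rose and 4 fell (20.23 to 20.25 and 18.31 to 18.41). Of 2 tested neutrophil markers 0 rose and 1 fell (0 and 3 of 4 with marked spots kept), with a summed log2 signal of 13.64 to 13.73 in normal lung and 11.39 to 11.70 in tumor. In contrast, 4 of 5 tested proliferation markers rose and 1 fell (16.34 to 16.40 and 16.73 to 16.87). Of 6 tested red blood cell probes 0 rose and 6 fell (18.74 to 18.78 and 18.01 to 18.17). Of 6 tested type 2 alveolar markers 4 rose and 2 fell (19.95 to 20.01 and 20.18 to 20.21). Of 4 macrophage markers 1 rose and 2 fell (17.37 to 17.47 and 17.54 to 17.74). Of 4 platelet markers 0 rose and 3 fell (12.29 to 12.38 and 12.94 to 13.16). Each sum covers all probes of its list, tested or not. With marked spots kept, 1 of 5 platelet markers rose and 3 fell. The 1 that rose was Pf4, the brightest of them in lung (0.98, adjusted p = 0.000203). The part of these cell types in the differences of the proteasome genes was not tested.

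In blood, 42 members were well above background on both arrays and 3 (Psmc3ip, Psme2 and Psmg2) on the NNK array alone. With 1 array a group there was no test, and values are log2 signals after quantile normalization within the 2 blood arrays. Of 40 members with unmarked spots on both, 12 were at least 2-fold higher in NNK blood and 2 at least 2-fold lower, while 18.1% of all 11615 probes compared were at least 2-fold higher and 14.9% lower. At any size 30 were higher and 10 lower. The median difference was 0.57 over the members and -0.12 over all probes. The control array was the dimmer one, with a 75th percentile of the signal of 95.4 against 205.8. With a 75th percentile shift in place of quantile normalization, 8 members were at least 2-fold higher and 5 lower, against 16.3% and 23.8% of all probes, with a member median of 0.17 beside an all-probe median of -0.31.

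**Figure D3:**
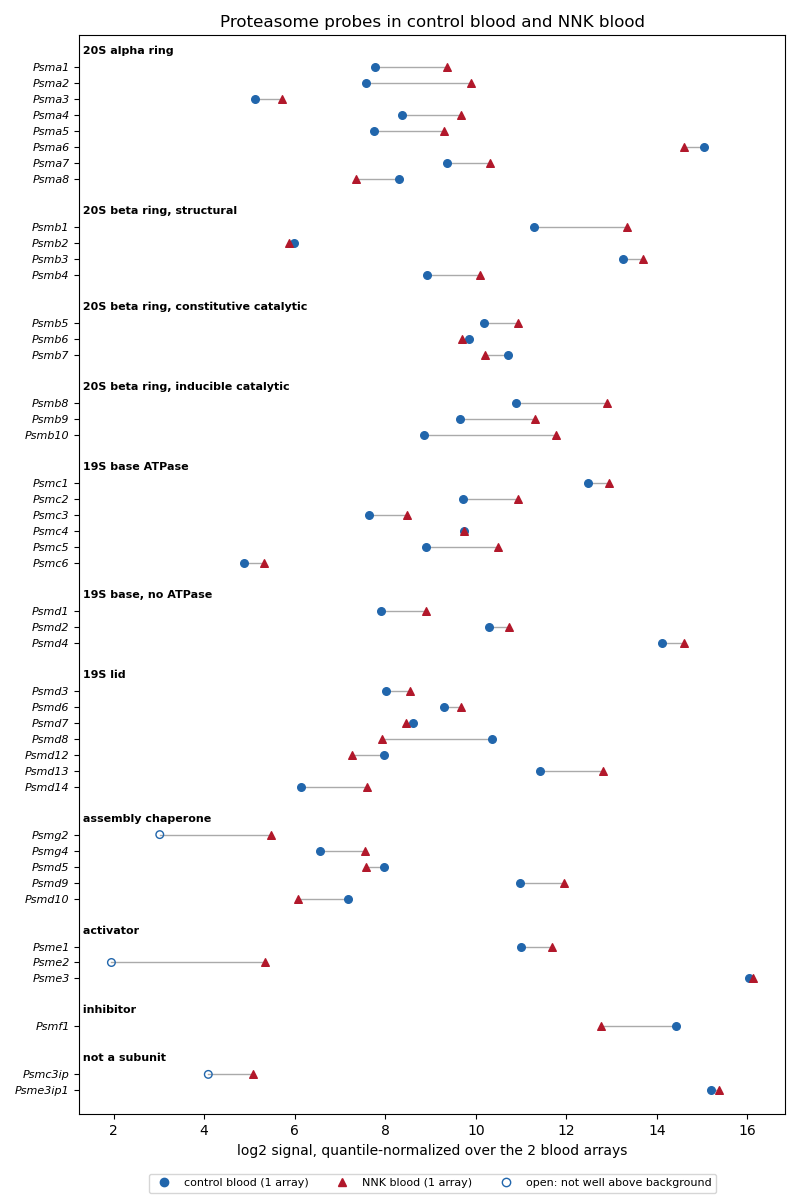
Log2 signal of each of the 45 proteasome probes in control blood (circles) and NNK blood (triangles), 1 array each, after quantile normalization within the 2 arrays (horizontal axis), with the genes ordered by role (vertical axis). Open circles were not well above background. The 3 inducible subunits are the role in which each gene is at least 2-fold higher in NNK blood, while Psmf1, Psmd10 and Psmd8 are at least 2-fold lower. Psmb9 and Psmd8 have a marked spot and are drawn like the others.

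All 3 inducible subunits were at least 2-fold higher in NNK blood. Psmb10 had the largest difference upward of the compared members, from 8.85 in control to 11.76 in NNK blood (2.91, or 7.52-fold). Psmb8 went from 10.89 to 12.89 (2.00, or 4.01-fold) and Psmb9 from 9.64 to 11.30 (1.66, with a marked spot on 1 array). The standard subunits differed by less than 2-fold: Psmb5 from 10.19 to 10.94 (0.75), Psmb6 from 9.86 to 9.69 (-0.17) and Psmb7 from 10.72 to 10.19 (-0.53). The difference between the inducible and the standard subunit thus shifted by 1.82 for Psmb9 and Psmb6, 3.44 for Psmb10 and Psmb7 and 1.26 for Psmb8 and Psmb5, opposite in sign to the shift in lung tumor. The lung and blood comparisons were not tested against each other.

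Psme2, dim in lung, was not well above background in control blood and reached 5.34 in NNK blood, at least 3.44-fold higher. Psme1, its partner, went from 11.00 to 11.68 (0.68) and Psme3 from 16.04 to 16.12 (0.08). Their sign depended on the setting: over the alternatives Psme1 ranged from -0.10 to 0.68 and Psme3 from -0.91 to 0.14. Of the 4 promoters shown, those of Psmb10 and Psme2 hold the paired GAAA repeats and those of Psmb8 and Psmb9 do not. The other members with this motif differed in blood by 1.30 (Psma4), 0.45 (Psmb3) and -0.15 (Psmd7). A link between the motif and the blood values was not tested. The core genes that followed Psmb10 in size were Psma2, from 7.57 to 9.88 (2.31, or 4.96-fold), and Psmb1, from 11.28 to 13.34 (2.05, or 4.15-fold). In all, 4 of 8 alpha ring genes were at least 2-fold higher, and 2 of 6 ATPase genes (Psmc2 and Psmc5), against 18.1% of all probes compared.

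Among members with unmarked spots, the largest differences downward in blood were those of Psmf1, the inhibitor, from 14.42 to 12.76 (-1.65, or 3.15-fold lower), Psmd10, from 7.18 to 6.08 (-1.10, or 2.14-fold lower), and Psma8, from 8.29 to 7.35 (-0.95). Psmd10, which had fallen in lung tumor, was thus lower in NNK blood too. Psmd8, whose control spot was marked, went from 10.36 to 7.92 (-2.44). Psmg2, the alpha ring chaperone, reached 5.48 in NNK blood and was at least 3.77-fold higher than in control blood, where it was not well above background. Psmb2 and Psmd12, the members that rose most in lung tumor, gave -0.12 and -0.70 in blood.

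Leukocyte and interferon genes differed between the same 2 blood arrays. Counts of these lists, with marked spots kept, stand beside 17.9% of all probes compared that were at least 2-fold higher and 14.7% lower. Of 7 T cell markers above background on both, 4 were at least 2-fold higher in NNK blood and 0 lower (summed log2 signal 15.11 in control and 15.14 in NNK blood), as were 3 of 4 macrophage markers (12.39 and 13.91) and 2 of 4 neutrophil markers (13.85 and 16.10). Of 5 platelet markers 0 were higher and 3 lower (17.23 and 16.43), and of 8 red blood cell probes 0 were changed 2-fold. Cd4, Itgam and Cd163 were not well above background on either array. Of 20 interferon response probes 10 were at least 2-fold higher and 1 lower, among them Irf1, from 9.51 to 12.77. The part of these cells in the proteasome values was not tested, and with 1 sample a group, NNK treatment and the individual rat cannot be told apart.

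Across lung and blood, after quantile normalization over all 8 arrays with marked spots kept, 20 of the 45 members (44.4%) were lower on both blood arrays than on any lung array and 12 (26.7%) were higher on both. Of all probes above background on any array, 44.3% and 31.4% did so, close to the share of the members. The members higher on both blood arrays included Psmd9, Psme3, Psmf1, Psmb6 and Psmd4, and those lower on both included Psma1, Psma3, Psmc6, Psmd1, Psmd14 and Psmg2. Genes of one ring went both ways: Psma1 to Psma5 were lower and Psma6 and Psma8 higher on both blood arrays. Each probe has its own binding strength, so levels were compared between arrays and not between genes.

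**Figure D4:**
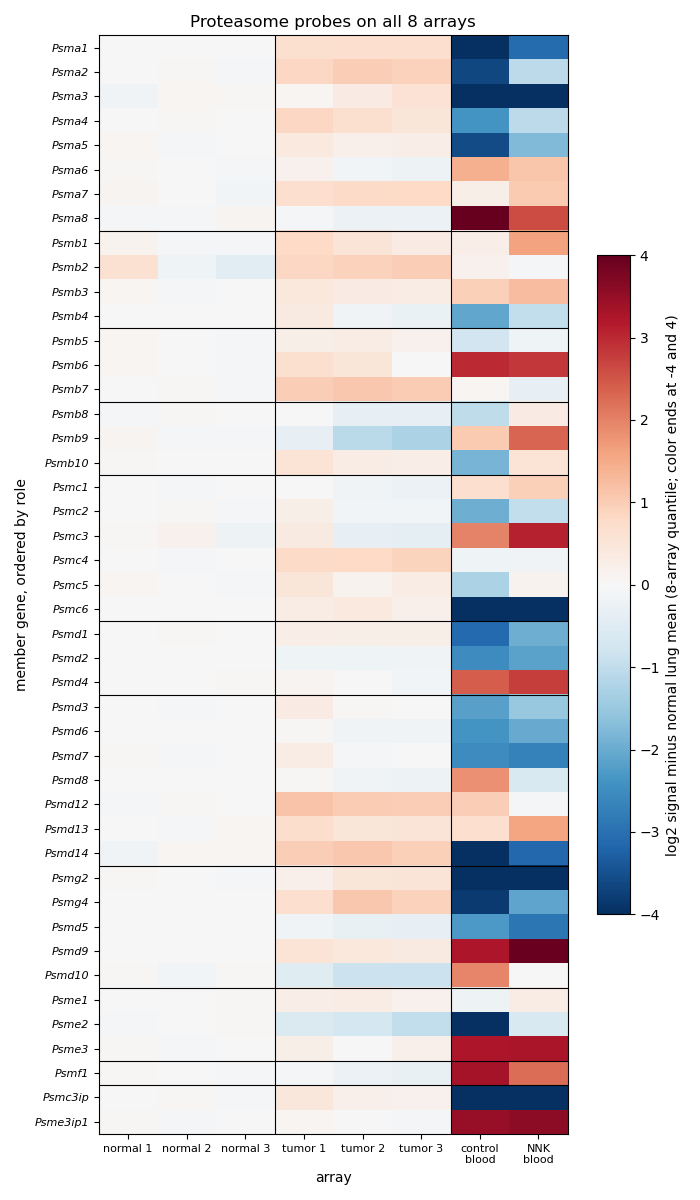
Log2 signal of the 45 proteasome probes on all 8 arrays, minus the mean of the 3 normal lung arrays (color), after quantile normalization over the 8 arrays; rows are genes in the order of their roles and columns are arrays. Color ends at -4 and 4, and the lowest value is -7.91. The largest differences are those between blood and normal lung, but Psmb2, Psmb7 and Psmc4 differ more in tumor than in blood. Genes of one role, such as the alpha ring, take both directions in blood.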

How the data were processed

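The array was read out in 6 lung and 2 blood samples. The deposited scanner files hold, per the file headers, a background-subtracted processed intensity for each spot from Agilent Feature Extraction 10.5.1.1, not normalized between arrays. The authors' own table holds log2 values that they quantile-normalized in GeneSpring over all arrays, and it served as an alternative. Control spots were left out, quantile normalization of the log2 processed signals was run over the 6 lung arrays and, apart from them, the 2 blood arrays, spots marked as outliers were left out, and a lung probe needed signal well above background on at least 3 of 6 arrays and at least 2 values per group. Of 15803 probes that passed, 12471 were tested with limma 3.58.1 in R 4.3.3 (lmFit and eBayes, group as the only term, two-sided) and adjusted by the Benjamini-Hochberg method over all of them. Blood was compared by difference alone. Where a member was not well above background in control blood, the NNK value was set against the higher of its own control value and the lowest signal well above background there, and given as "at least".

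Probes were named through RefSeq transcripts of GRCr8, in which 14274 mRNA probes (93.2%) matched. The members, the lists of related and marker genes and the naming rule (cutting subunits, activators, inhibitor and tissue-restricted members, the largest changes of each role and of blood, members past 2-fold, members not tested) were chosen with earlier results of these data known. A list of related genes is not reported in full here. Further members were named after their values were seen, as were the 4 promoters shown. Replicate numbers were taken as pairs because the labels call the tumors matched; deviations of same-numbered arrays from their group means correlated at 0.14, -0.04 and 0.16. The number of arrays limits the precision. Alternatives were another scaling (75th percentile shift, quantile over all 8 arrays), normexp with an offset of 50, a floor of 5, marked spots kept, other filters, replicate or slide blocks, the methods' t-test in both forms, near-identical arrays counted once and each array left out.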

Additional observations from a re-analysis of the deposited data

How the results depend on the processing

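The 3 differences between inducible and standard subunits kept their sign in every alternative run, and so did the medians in lung and blood; the t-tests and the filters were not run on these 3 differences. Counts of members depended on the setting, and the cause was not tested. Members that rose (13) numbered 23 with marked spots kept and with the authors' values (45 tested in both), 8 with the 75th percentile shift, 8 with the replicate block, 7 by the methods' paired t-test and 0 with near-identical arrays counted once. Of all probes, 33.7% rose, and in these settings 34.5%, 36.2%, 35.1%, 29.8%, 19.1% and 6.31% did. Members that fell (3) numbered 5 with marked spots kept, 6 with the authors' values and 1 by the paired t-test. Of all probes, 31.4% fell, and in these settings 31.6%, 31.9% and 19.5% did. Members at least 2-fold higher (1) numbered 2 with marked spots kept, 3 with the authors' values, and 0 with normexp, with no filter, with either block, by either t-test and with near-identical arrays counted once.

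The lung median (0.14) was 0.21 with marked spots kept, 0.0090 with the 75th percentile shift, 0.21 with normexp, 0.24 with the authors' values and 0.22 with the slide block. With each array left out in turn, 9 to 11 members rose, 2 to 7 fell, 0 to 1 rose 2-fold and the median was 0.054 to 0.17. Of all probes, 28.3% to 36.1% then rose and 27.1% to 36.0% fell. Among the calls made without marked spots, the replicate block lost those of Psma5, Psmb2, Psmb5, Psmd1, Psmd2 and Psme1. The methods' paired t-test, which also pairs by replicate number, lost those of Psma5, Psmb1, Psmb2, Psmb5, Psmd10, Psmd13, Psme1 and Psme2. In blood, members at least 2-fold lower (2) numbered 5 with the 75th percentile shift, 4 with quantile over all 8 arrays, 1 with normexp and 5 with the authors' values. Of all probes, 14.9% were at least 2-fold lower, and in these settings 23.8%, 22.1%, 6.26% and 22.6% were. The blood median (0.57) was 0.17, 0.61, 0.47 and 0.50 in this order and 0.68 with signal above background on at least 1 blood array. Psmb4 in lung, -0.02 with marked spots kept, was 0.30 with the slide block, where tumor array 1 alone carries the difference. Dim members (Psmb2, Psme2, Psmd10 and Psma8) and the dimmer control blood array limit what the signal over background can show.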
